A study of Homo sapiens with 10 samples.

Results

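The genes described here encode the proteins of the cytosolic ribosome and were chosen by name alone, as RPSA or any symbol made of RPL or RPS with a number (RPLP0 to RPLP2 included, and a closing A or X allowed). Of 77 human genes with such a symbol, 55 were measured among 23786 genes on the arrays, namely 36 of 46 large-subunit genes and 19 of 31 small-subunit genes, and the other 22 were not analysed here. The cells were MCF10A, a non-tumorigenic human mammary epithelial line that undergoes epithelial-to-mesenchymal transition (EMT) when it is given TGFβ1. The late window held cells kept for 5, 6, 8 and 12 days in TGFβ1 at 10 ng/mL, the middle window cells kept for 2, 3 and 4 days, and the early window untreated cells and cells kept for 4 h and 1 day. Per the study's methods, all plates, the untreated one included, went without serum before a joint harvest. Each of the 10 conditions had 1 array, so that time points were grouped into these windows and the spread within a window held both noise and change with time. Nothing states whether an array holds 1 culture or a pool, and p-values measure the spread between arrays only.

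The ribosome is assembled in the nucleolus from ribosomal RNA and about equal amounts of each protein, most of which are used in 1 copy per particle. Most ribosomal protein mRNAs begin with a run of pyrimidines, the terminal oligopyrimidine (TOP) tract, through which growth signals that pass through mTOR and the RNA-binding protein LARP1 set their translation and storage. Transcription of these genes and of the factors that build ribosomes is also known to follow MYC and the rate of growth.

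All 55 genes had a lower mean in the late than in the early window, where 59.3% of all genes did. A gene counted as called where its log2 difference reached 1 in size and limma's p, adjusted over every gene on the arrays, did not exceed 0.05. By this rule 27 ribosomal protein genes were called lower and 0 higher, against a background of 1.64% of all genes called lower and 2.92% called higher. On adjusted p alone 39 of the 55 were lower (7.12% of all genes), and 0 were higher at an unadjusted p under 0.05 (13.1% of all genes). The median log2 difference was -0.997 over the 55 genes and -0.06 over all genes. In 41 of the 55, each of the 4 late arrays was below each of the 3 early arrays, a separation that 13.1% of all genes showed. Without the untreated array, 21 were called lower, and over all genes 325 were, against 390 with all arrays. In bulk RNA, less mRNA per cell and fewer cells that carry it cannot be told apart.

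**Figure D1:**
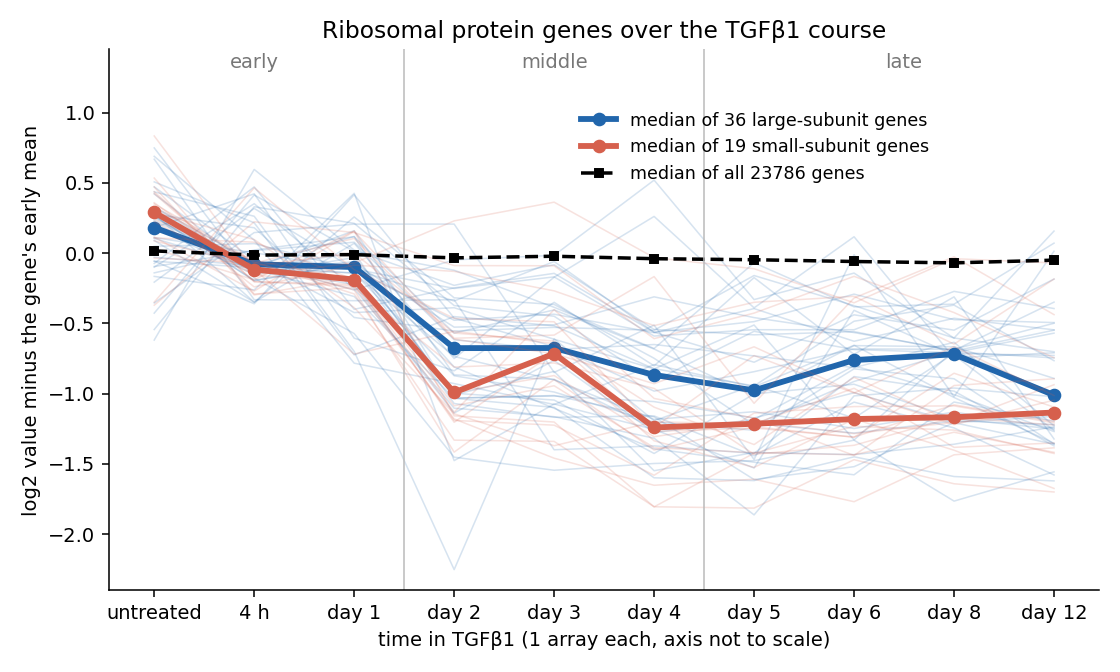
Each thin line is 1 of the 55 ribosomal protein genes, as its log2 value on each of the 10 arrays (1 per time, in time order along the horizontal axis) minus its own mean over the 3 early arrays, with thick lines for the subunit medians and a dashed line for the median of all genes. The medians drop between day 1 and day 2 and stay low, with small-subunit genes at -1.13 and large-subunit genes at -1.01 at day 12.

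RPS16, a small-subunit protein whose tail reaches the transfer RNA in the peptidyl site, had the most negative difference. Its log2 values were 6.56, 6.90, 6.73 and 6.67 on days 5, 6, 8 and 12, against 8.72, 8.31 and 8.08 in untreated cells, at 4 h and at day 1. The windows were well apart, with means of 6.72 ± 0.14 (SD, n = 4) late and 8.37 ± 0.32 (SD, n = 3) early. RPS16 was thus 3.15-fold lower in late cells, with a log2 difference of -1.66 (SE 0.17, limma adjusted p = 0.000127). RPL35, which lies at the exit of the tunnel that the nascent protein leaves by, had 6.83, 7.002, 6.86 and 6.83 late, against 8.87, 8.34 and 8.14 early, and was 2.97-fold lower (-1.57, SE 0.18, limma adjusted p = 0.000259). Late values of RPL35 differed little among themselves (SD 0.08), while its early values already declined in time order.

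RPL19, a large-subunit protein that takes part in a bridge to the small subunit, had 5.24, 5.38, 4.95 and 5.16 late, against 7.46, 6.54 and 6.14 early. Its early arrays were widely spread (SD 0.68), and the difference of -1.53 (SE 0.24) became -1.16 without the untreated array. RPS6, the substrate of the S6 kinases downstream of mTOR, had 5.82, 6.16, 5.94 and 5.67 late, against 7.58, 7.29 and 7.15 early (-1.45, SE 0.18, limma adjusted p = 0.000332). RPL30, a large-subunit protein, had 6.16, 6.25, 6.56 and 6.41 late, against 7.74, 7.68 and 7.89 early. RPL30 kept its untreated level through day 1, unlike the preceding genes, and then fell (-1.42, SE 0.12, limma adjusted p = 4.76e-05). In all of these genes, every late array was below every early array.

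**Figure D2:**
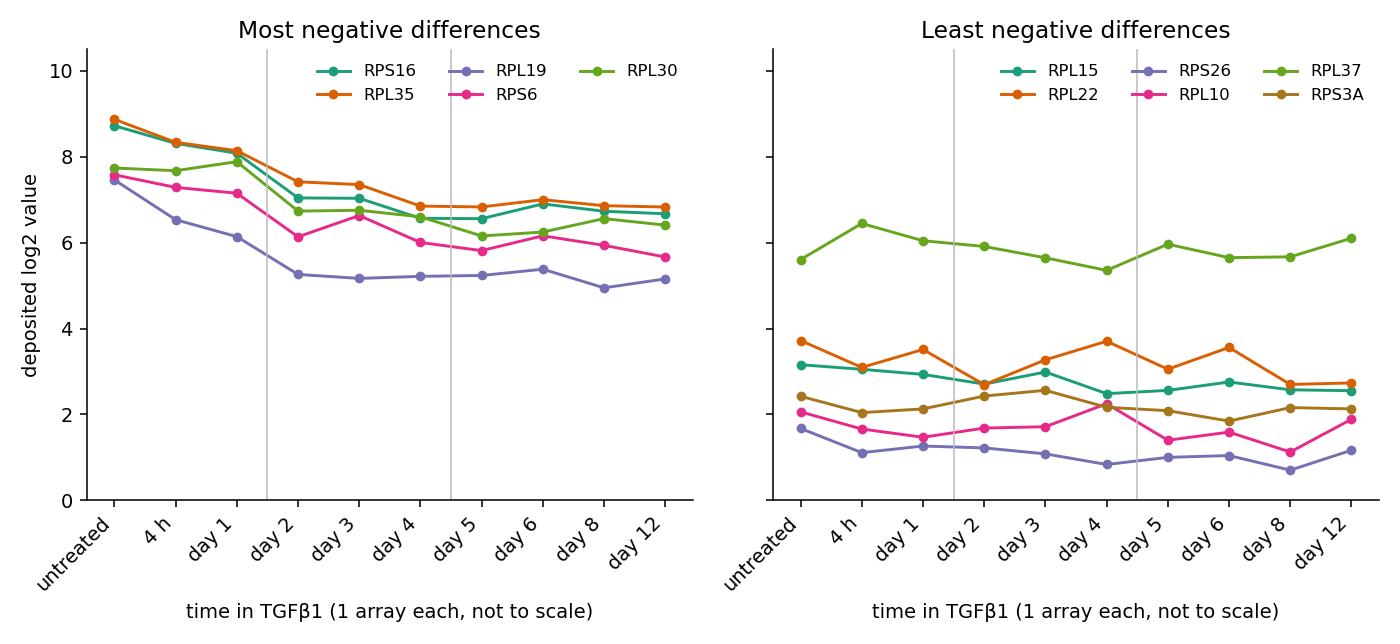
Deposited log2 values on the 10 arrays in time order, with grey lines between the early, middle and late windows. The 5 genes on the left, with strongly negative late minus early differences, drop by day 2 or day 4 and stay there, and the 6 on the right, with the least negative differences, lie lower except RPL37 and show no common course.

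The letters at the start of these genes are shown because the TOP tract is what most ribosomal protein mRNAs share. RefSeq promoter entries (GRCh38.p14) were found for 45 of the 55 genes, with 60 annotated starts, and RPL5, RPL8, RPL23, RPL23A, RPL30, RPL37, RPS15A and RPS20 were among the 10 with none. A start was counted as TOP-like where the first transcribed base was C and each of the next 4 bases was C or T. At least 1 such start was found in 32 of the 45 genes (71.1%), against 5.14% of 27305 genes in the whole table. In the sequences below, 15 bases stand before the annotated start and 15 from it, capitals mark the unbroken run of C and T that opens the transcript, and for genes with several starts the one with the longest run is given. The first 6 are called genes, and the last 5 are the genes with the least negative differences that have an entry.
RPS16 (chr19:39435935-39435964, minus strand): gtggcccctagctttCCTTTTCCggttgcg
RPL35 (chr9:124861943-124861972, minus strand): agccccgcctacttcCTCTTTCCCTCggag
RPS6 (chr9:19380222-19380251, minus strand): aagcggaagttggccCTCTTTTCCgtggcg
RPL19 (chr17:39200308-39200337, plus strand): gagcgagctctttccTTTCgctgctgcggc
RPL18 (chr19:48619164-48619193, minus strand): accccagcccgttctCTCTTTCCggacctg
RPS24 (chr10:78033848-78033877, plus strand): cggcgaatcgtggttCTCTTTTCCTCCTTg
RPL22 (chr1:6199581-6199610, minus strand): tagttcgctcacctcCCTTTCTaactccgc
RPL10 (chrX:154398362-154398391, plus strand): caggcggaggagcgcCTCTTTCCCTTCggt
RPS3A (chr4:151099613-151099642, plus strand): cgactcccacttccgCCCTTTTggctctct
RPL15 (chr3:23916530-23916559, plus strand): ggcgctggggcctgcTggaggagcttcacg
RPS26 (chr12:56041903-56041932, plus strand): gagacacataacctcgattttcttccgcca

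Counted per gene, genes that were called and genes that were not carried the TOP-like start about equally often. It was present in 14 of 20 called genes (70%) and in 18 of 25 genes not called (72%). Counted per annotated start, it was 14 of 23 (60.87%) in called genes and 18 of 37 (48.65%) in genes not called. The genes not called had more annotated starts per gene, and neither difference was tested. The median late minus early difference was -0.89 over the 32 genes with a TOP-like start and -0.98 over the 13 without one. RPL10 and RPS3A, whose means barely differed between the windows, have runs as clear as those of RPS16 and RPS6. Both are low rows, with means over the 10 arrays below that of the median gene (2.96), which limits what their small differences can show. Most called genes had a high level, and the shares with a TOP-like start were not compared at matched level. RPL19, a called gene, has a run of T first and no C at the annotated start. Among 68 mitochondrial ribosomal protein genes with an entry, 6 had a TOP-like start (8.82%).

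Of the 250 bases before the start, the letters TCTCGCGA on either strand were present in 8 of the 45 genes (17.8%), against 1.23% of genes in the table. They were also in 5 of 44 ribosome biogenesis factors with an entry (11.4%) and in 2 of 68 mitochondrial ribosomal protein genes (2.94%). These letters read TCGCGAGA on the other strand and match themselves in part, so that neighbouring matches can overlap. They were in 5 of 20 called genes and 3 of 25 not called. The letters CCGGAAG, the core bound by ETS factors, or their reverse complement, were in 17 of the 45 genes (37.8%), against 10.2% of genes in the table. This share was also high in the mitochondrial ribosomal protein genes, at 25 of 68 (36.8%), and in the ribosome biogenesis factors, at 19 of 44 (43.2%). The letters AAGATGGC, searched as a YY1 motif, were in 0 of the 45 genes, against 1.64% of genes in the table. A match is a description of the letters, not a binding site. In the 3 genes not called, RPL27A, RPL26 and RPL10, TCTCGCGA lay 24, 49 and 234 bases before the start. The windows are shown for the 4 called genes in which TCTCGCGA lay closest to the start, with the match in capitals.
RPS19 (chr19:41860195-41860224, plus strand): gctttcggaacTCTCGCGAgaccctacgcc
RPS6 (chr9:19380270-19380299, minus strand): acttctgctcaTCTCGCGAgaactgaaagc
RPL17 (chr18:49492512-49492541, minus strand): tcggctacgaaTCTCGCGAgaagtcaagtt
RPS15 (chr19:1438358-1438387, plus strand): catgccggcagTCTCGCGAtaactgcgcag

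The largest step between neighbouring arrays lay between day 1 and day 2. In it 47 of the 55 genes were lower at day 2 than at day 1 (51.6% of all genes). Of these, 35 were lower by at least 0.5 (7.32% of all genes), and 0 of the 55 were higher by that much (1886 of 23786 genes). The median step was -0.72 over the ribosomal protein genes and -0.01 over all genes. Between day 3 and day 4, 12 genes were lower at day 4 by at least 0.5 (5.26% of all genes), with a median of -0.31, close to the median of -0.30 for the step between untreated cells and 4 h. Each step compares 1 array with 1 array and has no test. Of the 27 called genes, 24 first passed below the midpoint between their early and late means at day 2, and RPS29 did so at day 1 and RPL13A and RPS21 at day 3. From day 4 onward, all 27 stayed below that midpoint. These genes were chosen by their late difference, and the midpoint comes from the same early and late arrays. That the late arrays lie below it is thus largely built in, and so in part is a crossing after the early window.

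The middle window already showed most of the difference. Against the early window, 23 of the 55 genes were called lower in it and 0 higher (1.02% of all genes called lower), with a median of -0.85. In 35 genes each middle array was below each early array, as in 13.3% of all genes. Of these 23 genes, 21 were also called in the late window. RPL23A and RPL29 were called in the middle window only, and RPS19, RPS21, RPL35A, RPL13A, RPS29 and RPS14 in the late window only. Whether these genes differ between middle and late was tested in the next comparison. Over the 27 genes called late, the middle difference was 88.8% of the late one at the median (range 65.7 to 118). These genes were chosen by their late difference, and both differences share the early arrays, which limits what this share can show. The count of 23 became 13 without the day 4 array.

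Between the late and middle windows, limma called 0 of the 55 genes in either direction (0.0715% of all genes were called lower). At an unadjusted p under 0.05, 5 were lower late than in the middle window (4.99% of all genes) and 0 were higher (4.79% of all genes). These were RPL30, RPS19, RPS21, RPL3 and RPS3A, named after their values were seen. The median difference was -0.12, and -0.02 over all genes. Differences were negative in 44 genes and positive in 11, while 12973 of all 23786 genes had a negative one. Single differences ran from -0.45 to 0.46.

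A limma fit of time in days and its square used all 10 arrays, and a gene was called where its adjusted p stayed within 0.05, its R2 reached 0.6 and its value moved from that of untreated cells by 1 or more at some time. It gave 31 ribosomal protein genes with a fall (3.44% of all genes). These held all 27 genes of the late comparison and added RPS4X, RPL3, RPL41 and RPL24. The fit and the late comparison share arrays, so that this overlap is partly built in. RPL35 had an R2 of 0.91, RPL11 of 0.89 and RPS16 of 0.86. In 22 of the 55 genes neither this fit nor a window comparison gave a call. With time as a straight line 3 were called lower, and over all 23786 genes 121 were, against 818 with the square.

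At 4 h the picture was mixed. Of the 55 genes, 42 were lower at 4 h than in untreated cells, where 53.5% of all genes were, and 13 of these were lower by at least 0.5 (11% of all genes). The median difference was -0.30, and -0.03 over all genes. The untreated array stood apart from the other 9, with a mean correlation of 0.960 to them against 0.973 to 0.983 for the others, and its part in this difference was not tested. Another 8 genes were higher at 4 h by at least 0.5 (11.4% of all genes), and 0 of these 8 were called lower in the late window. RPL13, a large-subunit protein, had 3.93 at 4 h and 2.71 in untreated cells, RPL28 had 4.87 and 3.99, RPL37 had 6.45 and 5.61, and RPS3, which sits where the mRNA enters and also has a role in DNA repair, had 5.93 and 5.12. At day 1, 10 genes were lower than at 4 h by at least 0.5 (6.26% of all genes). Of the 27 called genes, 26 were lower at 4 h than in untreated cells and RPL17 alone was higher, at 6.73 and 6.28. The untreated array is the reference at 4 h and is also in the early window, so that these overlaps with the late calls are partly built in.

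The highest value of a gene lay on the untreated array in 32 of the 55 genes, on the 4 h array in 10 and on the day 1 array in 10. The lowest lay on day 4 in 12, day 5 in 13, day 6 in 10, day 8 in 8 and day 12 in 9. The minimum was thus not at one common time.

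Both subunits had called genes. In the late comparison, 13 of 19 small-subunit genes (68.4%) and 14 of 36 large-subunit genes (38.9%) were called lower, with medians of -1.15 and -0.89 and ranges of -1.66 to -0.14 and -1.57 to -0.19. In the middle comparison 9 of 19 and 14 of 36 were called, with medians of -0.86 and -0.68, and in the fit over time 14 of 19 and 17 of 36. The difference between the subunits was not tested, since the genes of a subunit are not replicates, and the ranges overlapped nearly whole. At the step to day 2 the small-subunit median was -0.76 and the large-subunit median -0.64.

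**Figure D3:**
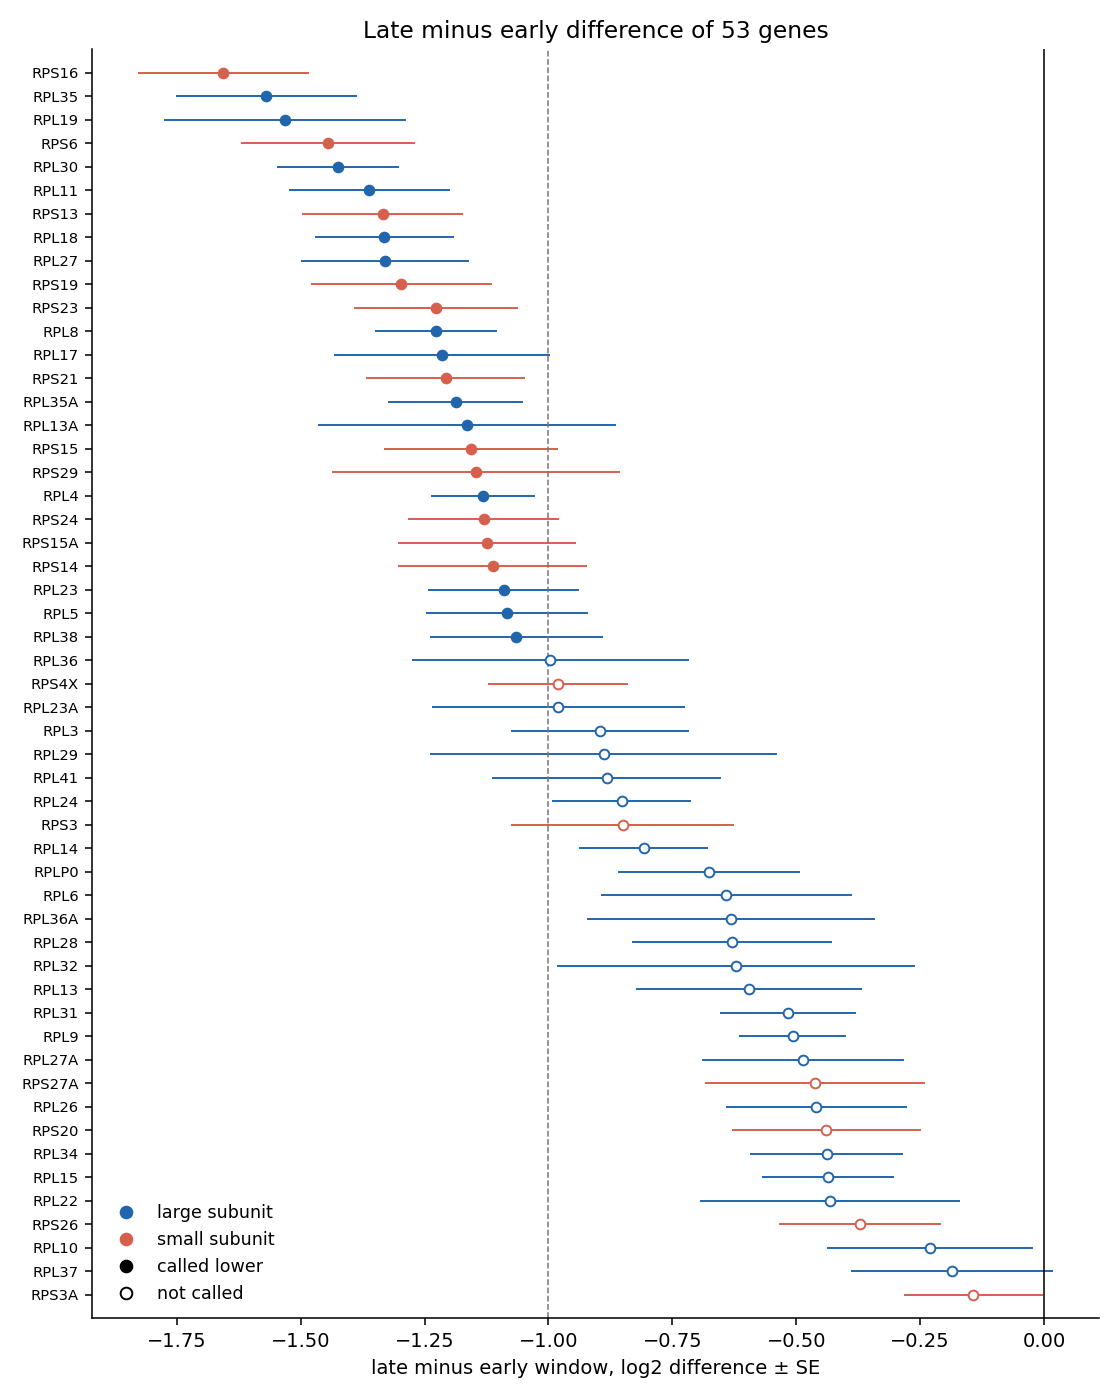
Late minus early log2 difference with its standard error for 53 of the genes, ordered from the most negative at the top, with filled points for called genes and a dashed line at the limit of -1. All of them lie below 0, RPS16 at -1.66 and RPS3A at -0.14 mark the ends, and the error bar of RPL37 crosses 0.

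Most called genes had a high mean level. Genes were split by their mean over all 10 arrays at the median gene (2.96) and the upper quartile (5.10) of all genes. Of 22 ribosomal protein genes at or above the upper quartile, 19 were called lower (3.14% of all genes at that level), with a median of -1.31. Of 22 between the median and the upper quartile, 6 were called (2.56% of all genes there), and of 11 below the median, 2 were (0.429% of all genes there), with medians of -0.83 and -0.46. At or above the upper quartile the 19 were 7 of 7 small-subunit and 12 of 15 large-subunit genes. Between the median and the upper quartile they were 5 of 8 small-subunit and 1 of 14 large-subunit genes. Over the 55 genes the mean level and the difference correlated at Pearson's r = -0.59 and Spearman's rho = -0.61, a description over genes that share the same 10 arrays. Ribosomal protein mRNAs are as a rule abundant in growing cells, and whether a low row, such as RPS26 at 0.98 ± 0.20 late and 1.35 ± 0.29 early, holds the level of its mRNA was not tested.

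**Figure D4:**
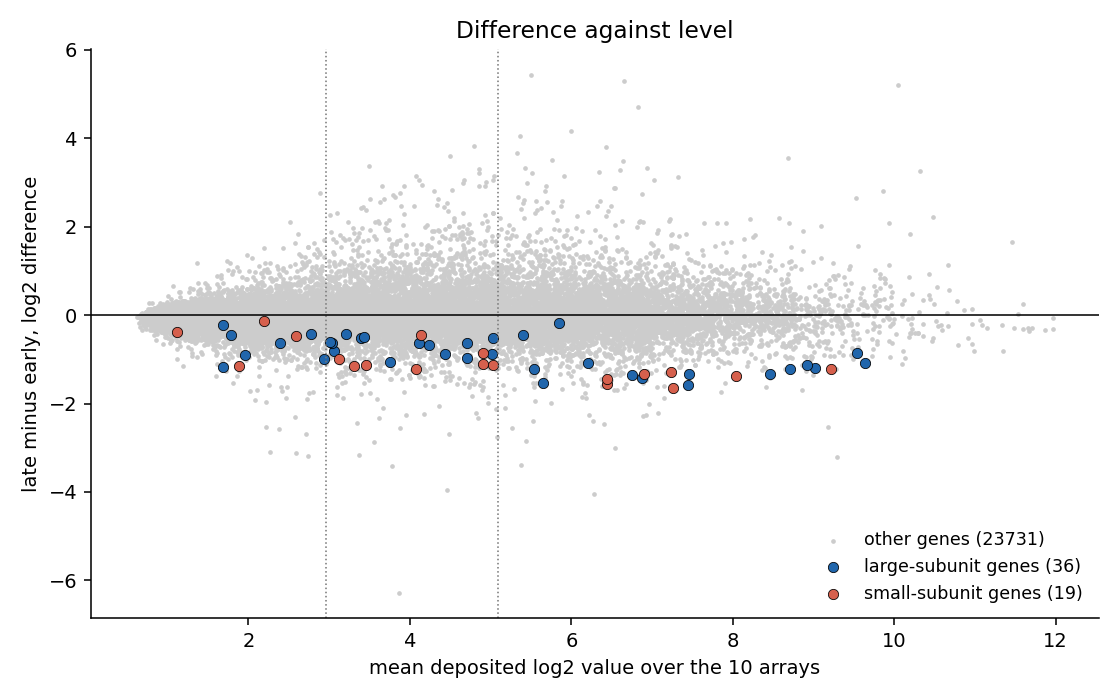
Late minus early log2 difference against the mean deposited log2 value over the 10 arrays, for all genes (grey) and the ribosomal protein genes by subunit, with dotted lines at the median gene (2.96) and the upper quartile (5.10). The ribosomal protein genes to the right of the upper quartile have a median of -1.31, with RPL37, RPL34 and RPL24 not called, and those below the median gene have a median of -0.46, with RPL13A and RPS15 called.

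Of the 28 genes not called in the late window, 12 passed the adjusted p but not the size limit and 16 had an adjusted p above 0.05. RPL38 at -1.06 and RPL36 at -0.997 lay just inside and just outside the size limit. RPS3A, a small-subunit protein, had the least negative difference, with 2.09, 1.85, 2.16 and 2.13 late and 2.42, 2.04 and 2.13 early (-0.14, SE 0.14, limma adjusted p = 0.561). Its windows overlapped and its middle mean of 2.39 ± 0.20 was the highest of the 3. RPL37, a small zinc-binding protein of the large subunit, had 5.97, 5.65, 5.67 and 6.10 late, against 5.61, 6.45 and 6.05 early (-0.19, SE 0.20, limma adjusted p = 0.612). RPL37 stood at 5.84 on average, above the upper quartile, and its untreated value lay below all 4 late values. RPL10, which joins the large subunit last and is needed for subunits to join, had 1.40, 1.59, 1.13 and 1.89 late, against 2.06, 1.66 and 1.47 early, with a difference of -0.23 (SE 0.21). Only RPL37 and RPL13 had a late mean above the untreated value, and for RPL13 these were 2.74 and 2.71.

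RPS26, at the exit of the mRNA channel, had 1.00, 1.04, 0.70 and 1.17 late, against 1.67, 1.11 and 1.27 early (-0.37, SE 0.16, limma adjusted p = 0.160). RPL22, an RNA-binding protein on the outside of the large subunit, had 3.05, 3.56, 2.70 and 2.73 late, against 3.72, 3.09 and 3.51 early (-0.43, SE 0.26). The windows of both genes overlapped. RPL15, a large-subunit protein, had 2.56, 2.76, 2.57 and 2.55 late, against 3.16, 3.05 and 2.93 early. Its late arrays were all below its early arrays, and a difference of -0.44 (SE 0.13, limma adjusted p = 0.0462) passed on p but not on size.

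RPL32 and RPL29, both large-subunit proteins, had the largest spread within windows, with residual SDs of 0.59 and 0.57 on the log2 scale, against medians of 0.26 over the ribosomal protein genes and 0.20 over all genes. RPL32 had 1.28, 2.74, 1.73 and 2.77 late, against 2.40, 2.90 and 2.96 early (-0.62, SE 0.36). RPL29 had 2.94, 4.59 and 4.00 at days 2, 3 and 4, its lowest value of the course being at day 2. With 4.26, 4.02, 4.48 and 4.47 late and 5.63, 5.46 and 4.50 early, its late difference of -0.89 (SE 0.35, limma adjusted p = 0.117) was not called although the windows did not overlap.

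By role, the genes that carry the 5S ribosomal RNA into the ribosome and bind MDM2, the inhibitor of p53, were called throughout. RPL11 had 6.22, 6.20, 6.28 and 6.40 late, against 7.83, 7.51 and 7.58 early (-1.36, SE 0.16, limma adjusted p = 0.000294). RPL5 had means of 9.29 ± 0.26 late and 10.38 ± 0.22 early (-1.08), and RPL23, which also binds MDM2, had 5.89 ± 0.15 late and 6.98 ± 0.24 early (-1.09). All of these 3 genes were also called in the middle window and over time. Over all 55 ribosomal protein genes, 27 were called lower late.

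Of 5 measured proteins of the mRNA channel and decoding site, 3 were called lower (60%), RPS23 and RPS15 among them. Called lower late were 49.1% of the 55 ribosomal protein genes and 1.64% of all genes. RPS23, which helps to keep decoding accurate, averaged 3.71 ± 0.19 late and 4.94 ± 0.35 early (-1.23), and RPS15 1.502 ± 0.15 late and 2.66 ± 0.37 early (-1.16). RPS3 was lower on adjusted p alone (-0.85, limma adjusted p = 0.0248), and RPS26 was not called. Along the exit tunnel, 4 of 8 genes were called (50%, near the share over the 55 genes), namely RPL35 and RPL19 and the wall proteins RPL17 (-1.21) and RPL4 (-1.13). RPL4 had the least noise of these, at 8.56 ± 0.09 late and 9.69 ± 0.11 early. RPL23A, RPL31, RPL26 and RPL22 had differences of -0.98, -0.52, -0.46 and -0.43 and were not called. RPLP0, the base of the stalk that recruits elongation factors, averaged 4.04 ± 0.14 late and 4.72 ± 0.39 early (-0.68, limma adjusted p = 0.0279) and was below the size limit.

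Some ribosomal protein genes are known from Diamond-Blackfan anaemia, an inherited failure of red cell formation. Of 11 such genes measured, 8 were called lower late, RPL11, RPL18, RPL27, RPS19, RPL35A, RPS29, RPS24 and RPL5, with a list median of -1.15. This share of 72.7% stood beside 49.1% of the 55 ribosomal protein genes and 1.64% of all genes, and the difference between the shares was not tested. RPS19, the gene most often affected in that disease, averaged 6.71 ± 0.12 late and 8.01 ± 0.46 early (-1.30, SE 0.18). RPL26, RPL15 and RPS26 were not called, and all of these lay below the median gene in level.

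A ribosomal protein outside the naming rule, and paralogs of ribosomal proteins, were measured as well. RACK1, a scaffold on the small subunit, averaged 9.44 ± 0.13 late and 10.37 ± 0.13 early (-0.93, SE 0.12, limma adjusted p = 0.000571). It was lower on adjusted p and short of the size limit. RPS27A, which does meet the naming rule and whose protein is made as a fusion with ubiquitin, had a difference of -0.46 (limma adjusted p = 0.200). Of 8 paralogs, RPL22L1 was called lower (1.64% of all genes), at 2.52 ± 0.34 late and 3.64 ± 0.54 early (-1.13, limma adjusted p = 0.00917). RPL36AL was lower on p alone (-0.54). RPL26L1, RPL3L and RPL39L had differences of -0.24, -0.12 and -0.09, and RPL7L1, RPS27L and RPL10L of 0.08, 0.11 and 0.15. RPS27L, a p53 target, stood at 6.04 ± 0.09 late and 5.93 ± 0.21 early.

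Of 25 rows named as ribosomal protein pseudogenes, 3 were called lower (1.64% of all genes) and 1 higher (2.92% of all genes), with a median of -0.22. RPL13AP20 averaged 5.93 ± 0.25 late and 7.63 ± 0.45 early (-1.69), RPL21P28 1.86 ± 0.46 late and 3.49 ± 0.28 early (-1.63), and RPL29P2 3.77 ± 0.43 late and 5.04 ± 0.10 early (-1.27). RPL23AP32 was higher, at 2.74 ± 0.29 late and 1.71 ± 0.32 early (1.03). Processed pseudogenes resemble their parent gene closely, and binding of one's mRNA to the other's probes was not tested. RPL13A itself had a low row, at 1.30 ± 0.27 late and 2.46 ± 0.58 early, beside the higher row of RPL13AP20.

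The mitochondrial ribosome has its own set of nuclear-encoded proteins. Of 76 mitochondrial ribosomal protein genes, 1 was called lower late (1.64% of all genes) and 0 higher (2.92% of all genes). On adjusted p alone 17 were lower (7.12% of all genes), and the median was -0.31. The called gene, MRPS6, averaged 5.05 ± 0.16 late and 7.04 ± 0.38 early (-1.99, SE 0.18, limma adjusted p = 5.74e-05), a larger difference than that of any cytosolic gene. MRPL52, MRPL48 and MRPL18 followed with -0.99, -0.93 and -0.81 and were lower on adjusted p alone. The median level of the mitochondrial genes, 4.98 on the log2 scale, was close to that of the cytosolic ones, 4.71.

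**Figure D5:**
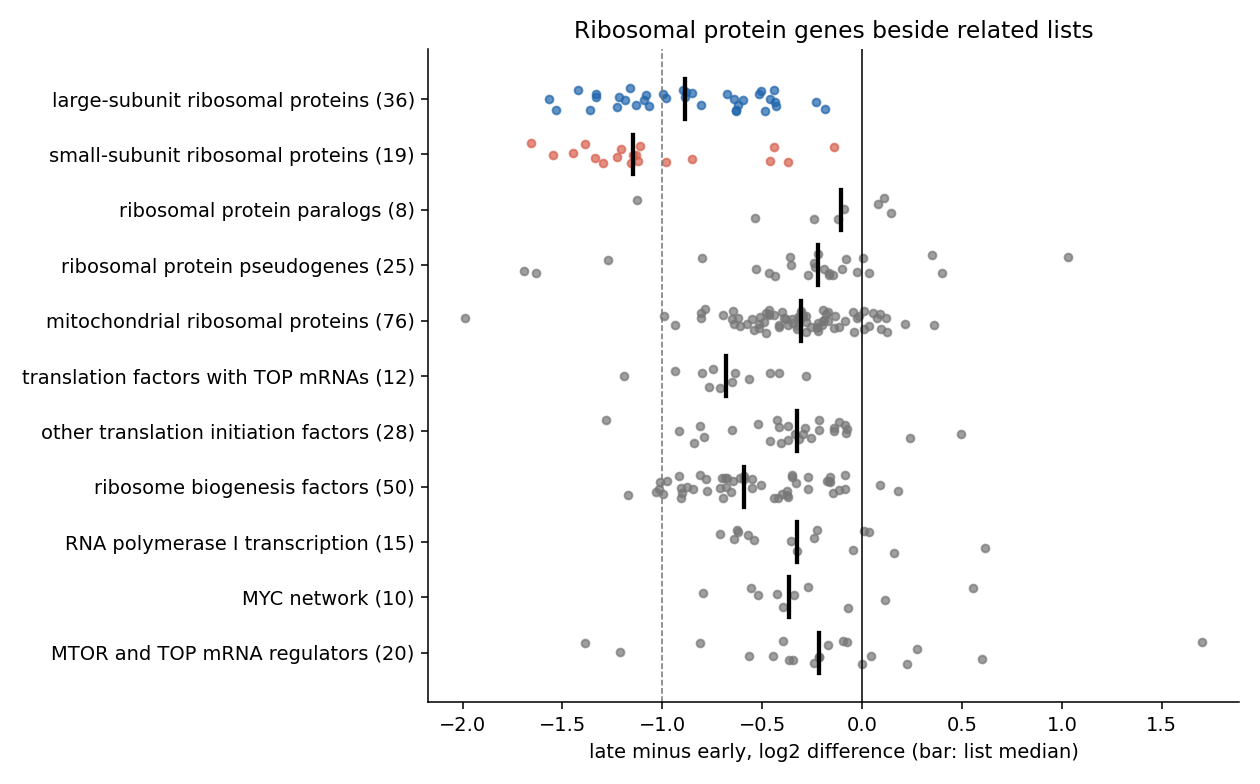
Late minus early log2 differences of single genes (points, spread vertically for display) in the cytosolic ribosomal protein genes by subunit and in related lists, with the number measured in brackets, a black bar at each median and a dashed line at -1. The medians lie at -0.89 and -1.15 for the large- and small-subunit genes, -0.31 for mitochondrial ribosomal proteins and -0.59 for biogenesis factors.

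Other parts of the translation machinery had negative medians and a smaller share of calls than the ribosomal protein genes. Over all genes, 1.64% were called lower late and 1.02% in the middle window, and 7.12% were lower late on adjusted p alone. In the lists that follow, in order, 8.33%, 3.57% and 8% were called lower late. Among 12 translation factors with TOP mRNAs, 1 was called lower and 8 were lower on adjusted p alone, with a median of -0.68. That gene was EEF1G, a subunit of the elongation factor that reloads EEF1A, at 8.58 ± 0.12 late and 9.77 ± 0.03 early (-1.19), followed by RACK1, EIF3L (-0.80) and NACA (-0.77). Among 28 other initiation factors, EIF3K was called lower (-1.28, SE 0.12), EIF1 (-0.92) and EIF3G (-0.84) were lower on adjusted p alone, EIF1AX had a difference of -0.81 (limma adjusted p = 0.141), and the median was -0.33. Among 50 ribosome biogenesis factors, 4 were called lower late and 8 in the middle window, 26 were lower late on adjusted p alone, and the median was -0.59. The 4 were DKC1, the pseudouridine synthase of ribosomal RNA (-1.17), FBL, its methyltransferase (-1.03), RRP12, which takes part in subunit export (-1.02), and NOP16, a nucleolar protein (-1.01).

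Regulators of ribosome production had no call for most genes. Of 15 genes of RNA polymerase I transcription 0 were called by limma in the late window, and 7 were lower and 1 higher at an unadjusted p under 0.05, where 15.2% of all genes were lower and 13.1% higher. POLR1C (-0.71), POLR1B (-0.63) and POLR1D (-0.62), subunits of the polymerase, were lower on adjusted p alone, POLR1F had a difference of -0.64 (limma adjusted p = 0.108), and UBTF, which binds the ribosomal DNA promoter, was higher on adjusted p alone (0.61). Of 10 genes of the MYC network 0 were called by limma in the late window, with 6 lower and 1 higher at an unadjusted p under 0.05. MYC averaged 6.30 ± 0.11 late and 7.09 ± 0.50 early (-0.80, SE 0.22, limma adjusted p = 0.0293), MGA and MLX had -0.55 and -0.52, and MXD3 had 0.56. In the fit over time, MYC was called lower (limma adjusted p = 0.0404) and MXD3 higher (limma adjusted p = 0.0462). Of 20 genes around mTOR and TOP mRNAs, 2 were called lower (1.64% of all genes) and 1 higher (2.92% of all genes). EIF4EBP1, the EIF4E repressor that mTOR inactivates, averaged 4.04 ± 0.76 late and 5.43 ± 0.58 early (-1.39, limma adjusted p = 0.0275). PDCD4, an inhibitor of EIF4A, had -1.21. SESN3, a sestrin that restrains mTORC1, was higher (1.70, limma adjusted p = 0.00976), with 4.82, 4.82, 4.87 and 3.18 on days 5, 6, 8 and 12. At day 12, SESN3 was thus below its day 1 value (3.30), and EIF4EBP1 (5.12) was above its own day 1 value (4.99). EIF4EBP2 was lower on adjusted p alone (-0.81).

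The response to TGFβ1 and the identity of the cells were checked on separate lists. Of 7 genes known to respond to TGFβ, FN1 (5.20), CDH2 (2.87) and PMEPA1 (1.62) were called higher late (2.92% of all genes). The summed linear level of 10 basal mammary markers was 7096 to 7591 late and 2619 to 6998 early, with 2 called higher, KRT14 (2.18) among them. Of the 10, 4 had negative differences, and S100A2 (-0.84) and EGFR (-0.52) were lower on adjusted p alone. The summed level of 9 luminal markers was 168 to 179 late and 146 to 171 early, with 0 called by limma and 0 at an unadjusted p under 0.05. That of 8 blood and endothelial markers was 27.2 to 30.8 late and 35.8 to 44.2 early, where CD14 alone was called lower (-1.22). None of these markers was listed at 0, and PTPRC, the defining marker of blood cells, stood at 0.95 late and 1.13 early. In the middle window, where 23 ribosomal protein genes were called lower, the luminal sum of 155 to 163 and the blood and endothelial sum of 37.2 to 40.7 lay within their early ranges, and the basal sum was 6791 to 7326. The part of the basal rise and of the lower late blood and endothelial sum in the result was not tested.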

How the data were processed

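Total RNA of MCF10A cells was hybridised to Affymetrix HuGene-2_0-st arrays, 10 in all, 1 per time. The deposited values are log2 expression levels that the authors computed with the RMA method of the affy package, which corrects background, quantile-normalizes the arrays and summarises probes by median polish, here into Entrez genes through a custom probe annotation. Quantile normalization makes all values relative, and a lower value can mean less mRNA of a gene or more of others. The number of arrays limits the precision.

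Entrez identifiers were matched to symbols in an NCBI RefSeq gene table (GRCh38.p14), which named 23093 of 23786 rows. Rows without a symbol, 693 in all, were tested but not named. Window means were compared in R 4.3.3 with limma 3.58.1 (1 mean per window, moderated by eBayes on 7 residual degrees of freedom), with Benjamini-Hochberg adjustment over all genes. A second limma fit used time in days and its square over all 10 arrays. The scripts were tested on simulated data. No filter on low values was used. Some genes that were analysed are not reported here.

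Named genes were RPS16 and RPL35, the 6 ribosomal protein genes with the most and the 6 with the least negative late minus early difference, the 2 with the largest residual SD, genes named by role, all paralogs, and up to 4 genes of each related list. The members and lists were chosen with earlier results of these data known. Alternatives were 2 other centrings, a filter at the median gene, a variance prior that follows the level, other limits, day 4 moved to the late window, other time terms and each array left out. Summaries were made in Python 3.11.15 with pandas 2.3.3, and figures with matplotlib 3.10.9.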

Additional observations from a re-analysis of the deposited data

Results flagged for a closer look

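Among the 4 late arrays, 1 array stood far from the other 3 in 2 of 53 ribosomal protein genes by Dixon's ratio, and chance alone flags about 1 in 20 such groups. RPL17 had 4.51 at day 5, with the other late arrays between 5.36 and 5.42. RPL15 had 2.76 at day 6, with the others between 2.55 and 2.57. The arrays differed between the 2 genes.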

How the results depend on the processing

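The late call of 27 genes stayed within 25 to 39 under the alternatives that keep all arrays, and ran from 21 (without untreated) to 31 (without day 1) when 1 array was left out, with 18 of the 27 genes called in all of those fits. The middle count of 23 ran from 13 (without day 4) to 25 (without day 1), and was 15 with day 4 in the late window. The late against middle count stayed at 0 throughout. The count of 31 over time ran from 24 (without 4 h) to 33 (without day 2), and was 3 with time in days alone, a form that cannot follow an early drop and a plateau. At 4 h, 35 to 43 genes were lower than their comparison under the alternatives. Of 233 alternative values for single named genes, 230 kept their direction and call. The late minus early difference of RPL37 ran from -0.40 without the untreated array to 0.022 without the 4 h array, RPL29 was called at -1.24 without day 1, and RPL15 was called at -0.44 on adjusted p alone. The causes were not tested. No paired analysis was possible because each time has 1 array and the labels carry no replicate numbers. The signal over background of single arrays was not used here, and low rows limit what a small difference can show.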
